A study of Mus musculus with 4 samples.

Results

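The genes described here are 8 that encode the pancreatic elastases (*Cela1*, *Cela2a*, *Cela3a* and *Cela3b*), chymotrypsins (*Ctrb1* and *Ctrl*) and carboxypeptidases (*Cpa1* and *Cpb1*). They were chosen by name, and their peaks are those that the authors' annotation of NFIC ChIP-Seq in mouse pancreas assigned to them. Of 15824 peaks on 9086 genes, 11 peaks lay on 7 of the 8 genes, and *Ctrl* had no assigned peak. NFIC is a transcription factor of the nuclear factor I family, and ChIP-Seq sequences the DNA recovered with an antibody to such a factor. The study used 3 NFIC ChIP libraries (antibody Bethyl A303-123A) and 1 input DNA library made with no antibody, all from mouse pancreas of a strain labelled Mixed, at 8 to 12 weeks of age by the design text. The labels named no allele and no treatment, and did not say whether animals were pooled. The paper describes the mice of this ChIP-Seq as wild type, with a narrower age range than the design text. The data are 1 merged peak list with 0 columns of values per sample, so no peak has a replicate error, the depth of each library is unknown, and every value below is a description without a test. The list holds no expression values, so the tissue label could not be checked against markers.

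Acinar cells of the exocrine pancreas make these proteases as inactive zymogens, store them in granules and release them into the gut, where they digest dietary protein. Elastases and chymotrypsins are serine proteases that cut inside a protein chain, after small and after large hydrophobic residues respectively, whereas carboxypeptidases are zinc enzymes that remove the last residue of the chain. Their promoters are classic acinar promoters, bound by the PTF1 complex (PTF1A with RBPJL) and by NR5A2. NFI proteins bind as dimers to a palindrome of the arms TGGC and GCCA, and more weakly to a single arm.

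The sequences below carry the main contrasts, which are the promoter peaks of 4 genes and the stretches of *Cela3a* that match 2 of the *Cela3b* peaks without holding a peak. They are reference sequences (GRCm38, the build named mm10 in the files), written 5′ to 3′ on the strand of the gene. Capitals mark an NFI full site, defined as the arms TGGC and GCCA separated by 5 bases with at most 1 mismatch over the 8 fixed bases, or a single arm TTGGCA on either strand. For *Cela2a* only the 85 bases of the peak upstream of a GENCODE transcript start are shown.
*Cela2a* promoter peak, chr4:141826161-141826245, minus strand: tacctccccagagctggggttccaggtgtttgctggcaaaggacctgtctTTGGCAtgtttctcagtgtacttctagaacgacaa
*Cela3b* promoter peak, chr4:137430557-137430729, minus strand: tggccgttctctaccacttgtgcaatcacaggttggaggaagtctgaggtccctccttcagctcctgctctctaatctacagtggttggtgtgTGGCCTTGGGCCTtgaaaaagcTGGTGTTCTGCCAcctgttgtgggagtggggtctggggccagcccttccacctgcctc
*Cela3a* stretch matching it, chr4:137409815-137409987, minus strand: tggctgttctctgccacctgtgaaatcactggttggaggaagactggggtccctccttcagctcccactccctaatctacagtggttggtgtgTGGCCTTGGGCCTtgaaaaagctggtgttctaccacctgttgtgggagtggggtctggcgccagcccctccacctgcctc
*Cela3b* peak at -2688 bp, chr4:137433122-137433294, minus strand: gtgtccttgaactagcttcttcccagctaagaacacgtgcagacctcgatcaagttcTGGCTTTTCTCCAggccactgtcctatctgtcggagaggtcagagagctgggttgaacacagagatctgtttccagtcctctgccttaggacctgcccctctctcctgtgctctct
*Cela3a* stretch matching it, chr4:137412554-137412716, minus strand: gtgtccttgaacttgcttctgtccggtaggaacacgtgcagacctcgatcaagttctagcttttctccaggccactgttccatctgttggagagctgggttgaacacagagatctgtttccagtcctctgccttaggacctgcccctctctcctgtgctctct
*Ctrb1* promoter peak, chr8:111691088-111691260, minus strand: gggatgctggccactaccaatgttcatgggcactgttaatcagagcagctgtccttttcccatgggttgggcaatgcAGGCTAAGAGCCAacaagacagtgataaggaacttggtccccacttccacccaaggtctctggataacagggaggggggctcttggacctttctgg
*Cpa1* promoter peak, chr6:30638689-30638861, plus strand: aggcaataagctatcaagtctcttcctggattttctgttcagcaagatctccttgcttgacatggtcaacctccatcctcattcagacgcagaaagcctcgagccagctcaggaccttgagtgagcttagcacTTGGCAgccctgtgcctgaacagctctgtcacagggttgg

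Peaks were assigned to 7 of these 8 genes, where 35.9% of 21770 protein-coding genes had an assigned peak. In 4 genes, *Cela2a*, *Cela3b*, *Ctrb1* and *Cpa1*, a peak was centred between -1000 bp and the transcription start site (TSS), against 10.3% of protein-coding genes. Each enzyme family was represented among these 4, and each family also had a gene without a promoter peak (*Cela1* and *Cela3a*, *Ctrl*, and *Cpb1*). The nearest peak to the TSS lay at a median of 2900 bp in the 8 genes and 32664.5 bp in all protein-coding genes. A peak lay within 10 kb of the TSS in 6 of the 8 genes, compared with 32.0% of protein-coding genes, and the mean number within that range was 1.25 compared with 0.406. The 8 genes thus had more listed peaks nearby than the average protein-coding gene, a background that includes genes that the pancreas does not express.

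**Figure D1:**
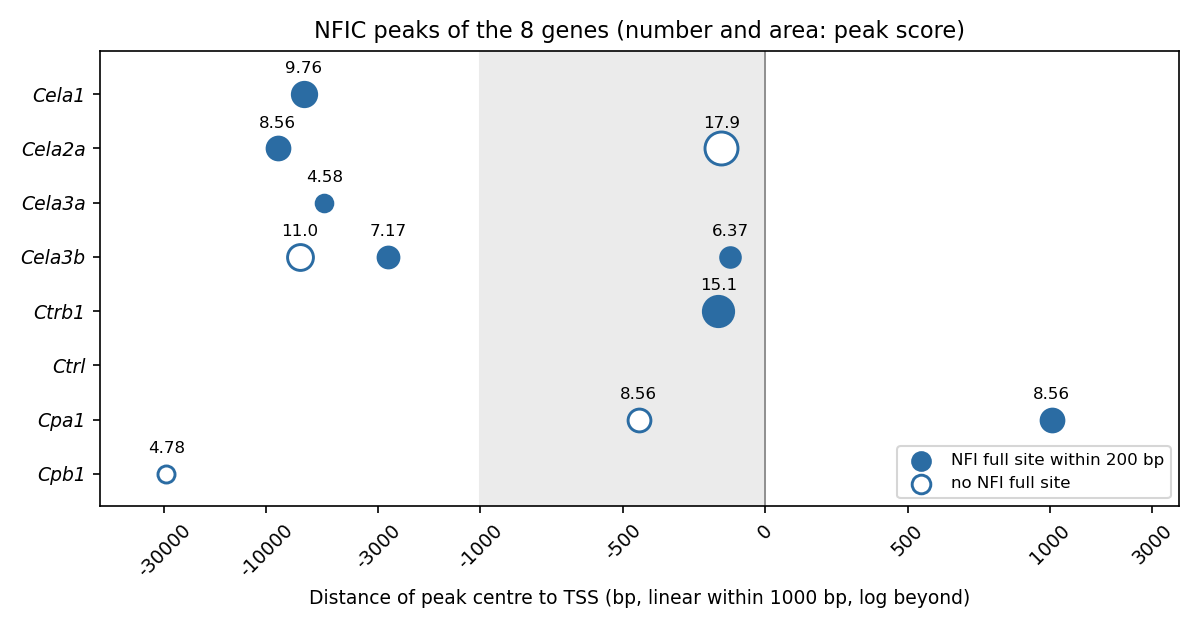
Distance of each peak centre to the TSS of its gene (x axis, bp, linear within 1000 bp and logarithmic beyond, negative upstream) for the 8 genes (y axis); the printed number and the area of a circle give the peak score, filled circles have an NFI full site within 200 bp centred on the peak, and the grey band is the promoter window. Of 11 peaks, 10 lay upstream of the TSS and 4 in the promoter window, and *Ctrl* had none.

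The list gives a score for every peak, whose scale is not named in the sources used here. The 11 scores ran from 4.58 to 17.9 with a median of 8.56 (order-statistic interval 4.78 to 15.1), where all peaks of the list had a median of 6.57 and a highest score of 68.1. In the list, 8 of the 11 peaks were in the upper 2 quartiles of score, which hold 51.6% of all peaks because of ties, and 4 were in the upper quartile, from 9.16. The promoter peaks of *Cela2a* and *Ctrb1* had the highest scores of the 11, and the distal peaks of *Cela3a* and *Cpb1* the lowest. All scores in the list were multiples of a step of 0.199. If 1 step is 1 sequenced tag, which the files do not state, counting error alone gives a 95% Poisson interval of 14.4 to 22.0 for the *Cela2a* promoter peak and 4.36 to 9.0 for that of *Cela3b*. These 2 intervals do not overlap, while that of the *Ctrb1* promoter peak, 11.9 to 18.9, overlaps the interval of *Cela2a*.

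**Figure D2:**
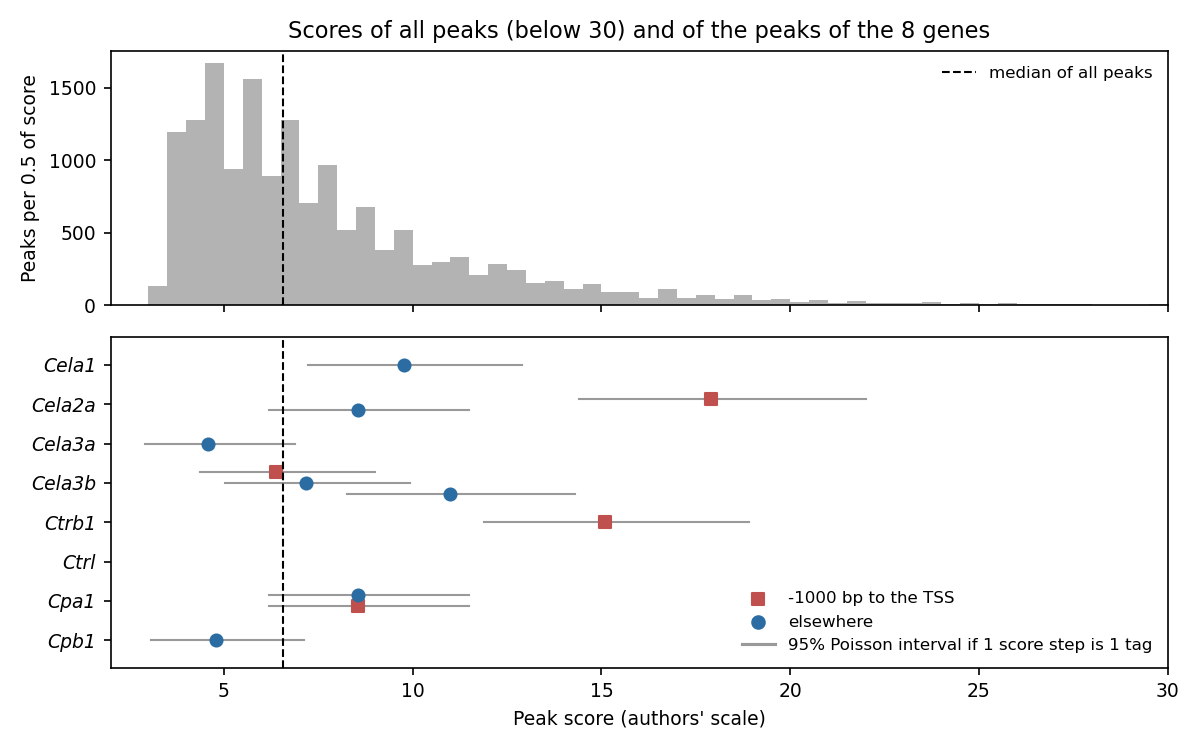
Upper plot, number of peaks (y axis) by peak score (x axis, bins of 0.5, scores below 30 shown); lower plot, the scores of the 11 peaks by gene, squares for promoter peaks and circles for others, with grey lines for the 95% Poisson interval that holds if 1 score step is 1 tag. The dashed line is the median of all peaks, 6.57, with 8 of the 11 peaks above it.

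*Cela1* encodes an elastase of the exocrine pancreas and had 1 peak, at chr15:100694527-100694699, centred at -6693 bp from its TSS. The score was 9.76, and 77.9% of all peaks scored lower. The closest GENCODE start was that of the antisense transcript *Galnt6os*, from which the peak lay at -1160 bp. The peak lay in exon 11 of 12 of the neighbouring gene *Galnt6*, which encodes an enzyme of protein glycosylation, and its centre was in coding sequence. It held 1 NFI full site with 1 mismatch, shown in capitals with 10 bases on each side (chr15:100694646-100694678, strand of *Cela1*), and a single arm TTGGCA near the peak centre.
*Cela1* distal site: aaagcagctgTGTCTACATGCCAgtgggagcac

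*Cela2a*, which encodes a serine protease that digests elastin, had 2 peaks, both upstream. Its promoter peak, centred at -154 bp (chr4:141826073-141826245), scored 17.9, the highest of the 11, and 96.9% of all peaks and 96.1% of the 2433 promoter peaks scored lower. No NFI full site was found in it. The match in the sequence above is the single arm TTGGCA from -190 bp, and an E-box (CAGGTG) began at -218 bp. In the GENCODE annotation the first exon of *Cela2a* begins 1 bp from the peak centre, so the same peak is at the start of a transcript there rather than upstream of one. The peak at -8852 bp (chr4:141834771-141834943, intergenic) scored 8.56, with 70.2% of peaks lower. It held 2 NFI full sites side by side, and the second matched all 8 fixed bases.
*Cela2a* distal site with 1 mismatch, chr4:141834900-141834932, minus strand: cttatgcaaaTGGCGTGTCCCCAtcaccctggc
*Cela2a* distal site with no mismatch, chr4:141834881-141834913, minus strand: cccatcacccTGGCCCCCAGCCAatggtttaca
The gene thus combined a high-scoring promoter peak without a full site and a distal peak of lower score with an exact one.

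*Cela3a* and *Cela3b* encode closely related proteases with little activity on elastin and lie 20729 bp apart, TSS to TSS, on chromosome 4 in the same orientation. *Cela3b* had 3 peaks, all upstream, where 6.15% of protein-coding genes had 3 or more. The scores were 6.37 for the promoter peak at -123 bp, 7.17 at -2688 bp and 11.0 at -6968 bp (chr4:137437402-137437574), so that the highest was the farthest from the TSS. The last held a single NFI arm but no full site and lay in an exon of *Gm13010*. GENCODE types this transcript as antisense, while RefSeq places it on the strand of *Cela3b*. Its GENCODE start was the closest to that peak, which lay at 907 bp from it and at -6948 bp from the nearest GENCODE start of *Cela3b*. *Cela3a* had 1 peak, at -5357 bp (chr4:137415062-137415234), with a score of 4.58 that only 16.4% of all peaks fell below. This peak lay in an RMER17C2 repeat of the LTR class, and 67.5% of its window was repeat-masked. Its sequence had 93 other matches of at least 100 bp in the genome, the best at 77.9% identity. An NFI full site with 1 mismatch lay 3.5 bp from its centre (chr4:137415129-137415161, minus strand).
*Cela3a* distal site: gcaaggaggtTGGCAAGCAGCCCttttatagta

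The 2 genes were listed differently although their promoters are near copies. The *Cela3b* promoter peak aligned over all 173 bases to the *Cela3a* promoter, with 160 identical bases, 13 mismatches and 0 gaps (92.5% identity). Over the whole 300 bp promoters, with 26 gaps counted, the 2 genes had 85.0% identity. The other 27 pairs among the 8 genes had between 42.4 and 48.5%. The 2 promoter windows are offset, as the same NFI site lies at -116 bp of *Cela3b* and -103 bp of *Cela3a*. A blastn match of the *Cela3a* promoter at *Cela3b* had 92.4% identity over 302 bp. No peak was centred in the *Cela3a* copy, and the nearest peak centre was 5247 bp away. The *Cela3b* peak at -2688 bp likewise had a copy at -2844 bp from the *Cela3a* TSS, at 89.0% identity, with no peak in it. The third *Cela3b* peak had no match of 100 bp or more elsewhere.

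The NFI sites differed between the copies by single bases, with positions counted from 1 at the 5′ end of the site on the gene strand, the *Cela3b* base first and the *Cela3a* base last. The first full site of the promoter, TGGCCTTGGGCCT, was identical in both genes, at -116 bp of *Cela3b* and -103 bp of *Cela3a*. The second, TGGTGTTCTGCCA in *Cela3b*, was TGGTGTTCTACCA in *Cela3a*, a difference of G10A that brought the mismatches to the motif from 1 to 2. In the distal pair, TGGCTTTTCTCCA in *Cela3b* was TAGCTTTTCTCCA in *Cela3a*, a difference of G2A that also brought the mismatches from 1 to 2. Of the 3 full sites in these *Cela3b* peaks, 1 was thus kept as a full site in *Cela3a*. The longest runs without a difference between the copies were 53 bases in the promoter and 74 bases in the distal pair. How reads that match both copies were placed, and the read length, are not given in the sources used here, and their part in the listing of one gene and not the other was not tested.

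*Ctrb1*, which encodes chymotrypsinogen B, had 1 peak, centred at -164 bp (chr8:111691088-111691260). The score was 15.1, with 94.1% of all peaks and 93.3% of promoter peaks lower. An NFI full site with 1 mismatch, AGGCTAAGAGCCA, began at -173 bp and was centred 2.5 bp from the peak centre. The same peak held an E-box (CAGCTG) from -205 bp followed by a TC-box (TTCCCA, the letters bound by RBPJ and RBPJL) from -194 bp, the arrangement bound by PTF1, and a GATA motif (GATAAG) from -150 bp. *Ctrb1* was the only one of the 8 genes whose promoter peak held both an NFI full site and this pair. No other peak lay within 10 kb, but 5 peaks assigned to *Bcar1*, an adaptor protein gene upstream, lay between -49506 and -27123 bp from the *Ctrb1* TSS, with scores from 5.38 to 13.5.

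*Ctrl*, which encodes a chymotrypsin-like protease, had no assigned peak. Its nearest peak was at -15684 bp from the TSS, scored 6.57 and was assigned to *Mir7074*, in an intron of *Slc12a4*, a gene for a potassium chloride cotransporter. Of protein-coding genes, 37.7% had a peak nearer to their TSS. Binding at *Ctrl* was therefore not detectable in this list, which does not show that it is absent. Its promoter held an NFI full site with 1 mismatch from -87 bp, TGGGGCTATGCCA.

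*Cpa1*, which encodes a carboxypeptidase that removes aromatic and aliphatic residues, had 2 peaks with the same score of 8.56 on either side of the TSS. The promoter peak was centred at -443 bp, farther from the TSS than the other 3 promoter peaks, and held a single arm TTGGCA from -396 bp but no full site. The second, at 1016 bp (chr6:30640148-30640320), lay in intron 2 of 9. It held an NFI full site with all 8 fixed bases, shown on the plus strand (chr6:30640162-30640194).
*Cpa1* intron site: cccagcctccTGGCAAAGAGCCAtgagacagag
In GENCODE a *Cpa1* transcript starts near this intron peak, which is centred at -107 bp of it. Both annotations together thus put each *Cpa1* peak upstream of a start of the gene. The promoter held an NFI full site with 1 mismatch from -193 bp, TTGCCAACCGCCA, outside both peaks.

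*Cpb1*, whose product removes basic residues, had 1 peak, at -29402 bp from the TSS (chr3:20305049-20305221, intergenic). The score was 4.78, with 20.2% of all peaks lower, and 48.0% of protein-coding genes had a peak nearer to their TSS. The closest GENCODE start was that of the lincRNA *Gm43525*, from which the peak lay at -3272 bp. It was the only one of the 11 peaks with neither an NFI full site nor a single arm. Its sequence had 21 other matches of at least 100 bp in the genome, the best at 77.5% identity.

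**Figure D3:**
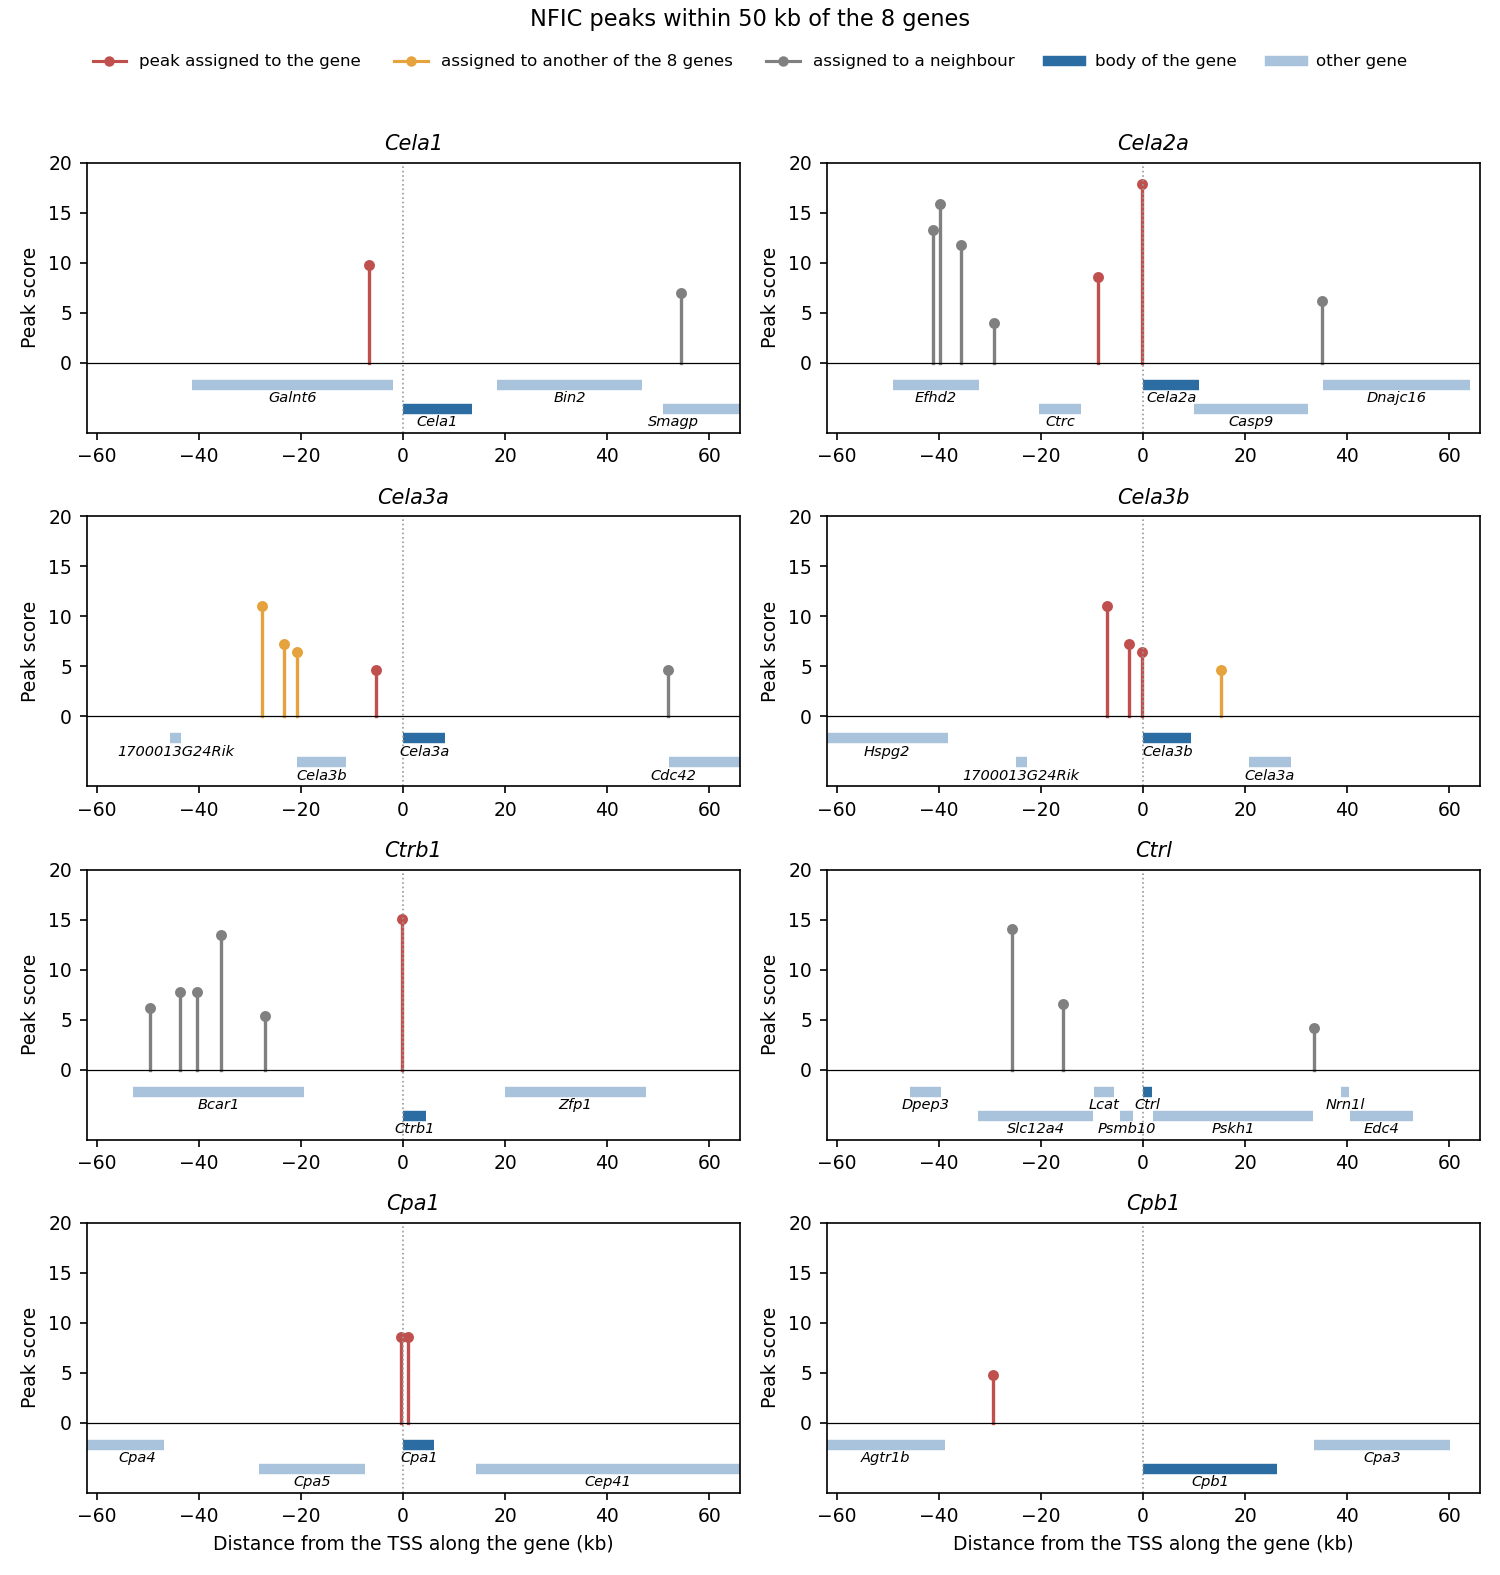
Peak score (y axis, stems) by distance from the TSS along each gene (x axis, kb) for peaks within 50 kb of the gene body; red stems are assigned to the gene, orange to another of the 8 genes, grey to a neighbour, and bars below are gene bodies. The grey groups of 3 *Efhd2* peaks upstream of *Cela2a* and 5 *Bcar1* peaks upstream of *Ctrb1* stand beside a single promoter peak of each gene, and *Cpb1* has 1 distant peak.

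Across the 11 peaks an NFI full site was found in 7, or 63.6% (95% Wilson interval 35.4 to 84.8%), beside 51.8% of all peaks and 37.7% of all promoter peaks. The interval holds the share of all peaks. It treats the 11 peaks as independent draws, although they were chosen by gene and several share a gene, so it describes and does not test. In 4 of these 7 the site centred nearest lay within 30 bp of the peak centre, beside 59.9% of all peaks with a site. An exact site was found in 2 of the 11, at *Cela2a* and *Cpa1*, compared with 13.4% of all peaks. Among the 4 promoter peaks, those of *Cela3b* and *Ctrb1* held a full site and those of *Cela2a* and *Cpa1* only a single arm, so the score did not follow the site among these 4.

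Of the other motifs searched in the same windows, a TC-box (TTCCCA) occurred in 6 of the 11 peaks against 20.9% of all peaks, and an E-box (CACCTG or CAGCTG or CAGATG) in 7 against 48.3%. An E-box and a TC-box whose starts lay at most 30 bp apart occurred in the peaks of *Cela1* and *Ctrb1*, against 5.13% of all peaks. The *Cela1* pair ran from -6664 bp. A GATA motif (GATAAG) occurred in the 200 bp windows of the *Cela3b* and *Ctrb1* promoter peaks, against 7.74%. The *Cela3b* match, at chr4:137430733-137430738, lay outside the peak as deposited, which ends at 137430729. An NR5A2 motif (CAAGGTCA or CAAGGCCA) occurred only in the *Cela3b* promoter peak, against 5.38%. At *Cela3b* the NR5A2 match lay wholly within the first NFI full site. The FOX motifs TGTTTAC and TATTTAC were found in none of the 11, against 6.38% of all peaks. All motifs were searched on both strands, and a single NFI arm can overlap a full site, as at *Cela3a*. A match is a run of letters, not a measured binding site.

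In the RefSeq promoters, from 250 bp before to 50 bp after the TSS, an NFI full site occurred in 6 of the 8 genes, beside 15.3% of 32851 promoters, and was missing in *Cela2a* and *Cpb1*. The site did not separate the genes by their peaks. It was found in 3 of the 4 genes with a promoter peak and 3 of the 4 without. *Cela3b* is among the former and *Cela3a* among the latter. Each was counted separately in this and the other promoter counts. As near copies with 1 identical site, they are not independent observations. All 8 promoters held an E-box (44.3% of all promoters), 5 held a TC-box (25.6%) and 5 a GATA motif (7.44%). The paired E-box and TC-box occurred at *Ctrb1* and *Cpa1* (3.5%), and the NR5A2 motif at *Cela3a* and *Cela3b* (3.92%).

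**Figure D4:**
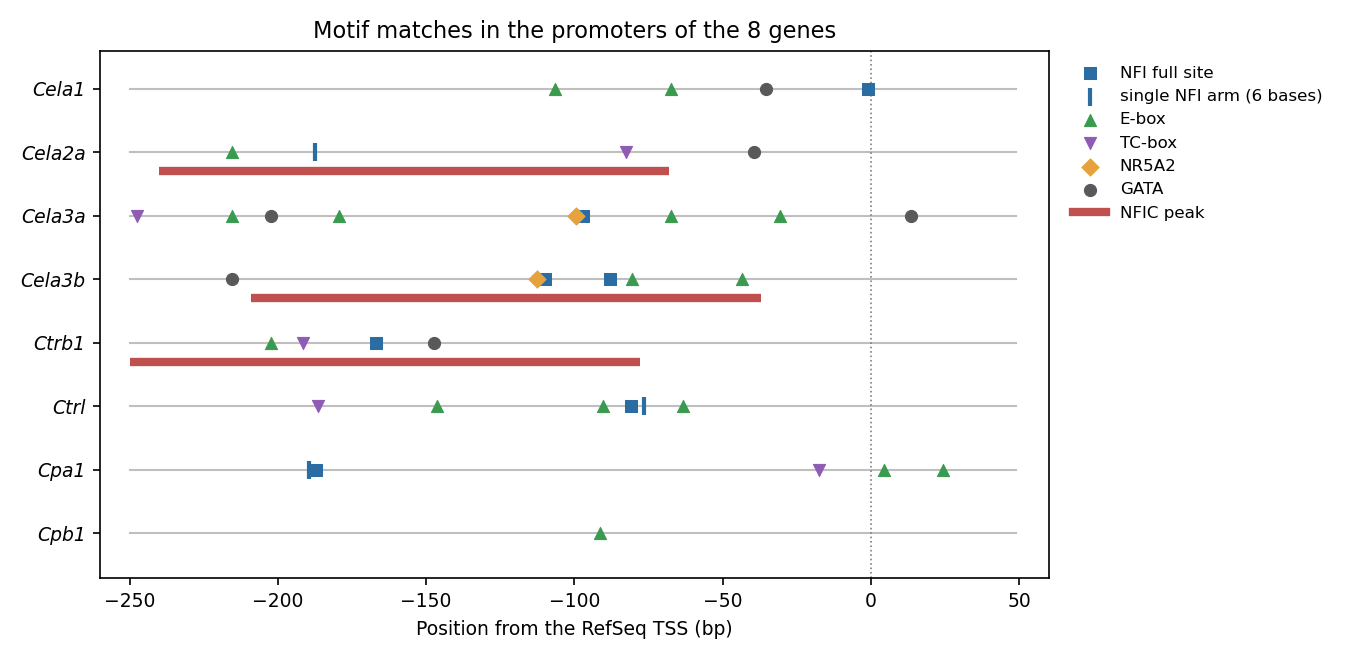
Position of motif matches from the RefSeq TSS (x axis, bp) in the promoters of the 8 genes (y axis), with a red bar for the part of an NFIC peak that lies in the window. NFI full sites lie under the peaks of *Cela3b* and *Ctrb1*, while those of *Cela1*, *Cela3a*, *Ctrl* and *Cpa1* lie under none.

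The 11 peaks were otherwise like the list as a whole in base composition and shape. The median GC content of their windows was 55.0% (46.0 to 59.0%), compared with 54.0% for all peaks and 64.0% for all promoter peaks. The median focus ratio, a fraction of each peak's tags in the authors' list, was 0.674 compared with 0.684. They differed in place. Upstream of the TSS lay 10 of the 11, against 44.5% of all peaks, and 7 had another peak within 10 kb, against 33.8%. These 7 were the peaks of *Cela2a*, *Cela3b* and *Cpa1*, each near another peak of its own gene, so they are not separate observations. Of the 4 promoter peaks, 3 were centred from -200 to -100 bp, a span that held 25.0% of all promoter peaks.

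Within 50 kb of the 8 genes the list held 26 peaks, of which the 15 not assigned to them belonged to 9 other genes. These 15 scored 3.98 to 15.9 (median 6.97), and 6 had an NFI full site. The densest group lay upstream of *Cela2a* in *Efhd2*, which encodes a calcium-binding protein, with scores of 11.8, 15.9 and 13.3 from -35689 to -41065 bp of the *Cela2a* TSS, each with an NFI full site. At *Ctrl* the 3 neighbours were assigned to *Pskh1* (4.18), *Mir7074* (6.57) and *Slc12a4* (14.1). The others were assigned to *Bcar1* near *Ctrb1*, to *Dnajc16* and *Ctrc* near *Cela2a*, to *Cdc42* near *Cela3a* and to *Smagp* near *Cela1*. The assignment is by the nearest TSS and does not show which gene a peak acts on.

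Among further genes of the same enzyme families, none of those named here had a promoter peak. *Ctrc*, a chymotrypsin C gene that RefSeq lists as a transcribed pseudogene in this build, had a peak at -8904 bp with a score of 3.98, below which 4.26% of all peaks fell. *Cpa3*, the carboxypeptidase of mast cells, *Cpb2*, that of blood plasma, and *Cpa4*, *Cpa5* and *Cpa6* had no assigned peak. *Cpa4* and *Cpa5* are neighbours of *Cpa1* on chromosome 6, and of these 3 genes *Cpa1* alone had a peak in its promoter.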

How the data were processed

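DNA bound by NFIC in mouse pancreas was sequenced in 3 ChIP libraries, with 1 input DNA library. The authors deposited 1 merged peak list, annotated with HOMER for mm10 per the file headers. Its peak score is on the authors' own scale, which is not named in the sources used here, and its focus ratio is a fraction deposited by the authors. The submitters' processing notes name BWA, Picard and MACS2 without versions. The paper's methods on NFIC ChIP-Seq name RUbioSeq+ and HOMER in a paragraph that opens with downloaded ChIP-Seq data. Whether that paragraph also covers the NFIC libraries is not stated. Thresholds are not given in the sources used here. No depth per library can be read from the list. The Poisson intervals of scores cover counting error only. The Wilson and order-statistic intervals treat the peaks of these genes as independent draws, and none of the intervals covers replicate error.

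All 15824 peaks lay on chromosomes of the GRCm38.p6 reference, 0 of them past a chromosome end, and the distances of all 11 peaks equalled those to the RefSeq TSS. That all scores were multiples of the step was judged with a tolerance of 0.005 under a score of 10 and 0.05 from 10. Positions are 1-based. Motifs were searched on both strands in windows of 200 bp and in RefSeq promoters (32851 in the table, all 8 genes matched), a step that found 100% of 5500 planted sites when tested on simulated data. Copies were sought with blastn 2.17.0 and aligned with Biopython 1.88. The versions were pandas 2.3.3, numpy 2.4.6, scipy 1.17.1 and matplotlib 3.10.9, on Python 3.11.

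The genes and motif lists were chosen with earlier results of these data known. The text names the 8 genes, others of the same enzyme families, of which 1 is not reported here, and the genes given to other peaks within 50 kb, and transcripts at the peaks were named after their values were seen. No test was run. The alternatives varied the score quartiles, the assignment to genes, the promoter window and the motif search.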

Additional observations from a re-analysis of the deposited data

How the results depend on the processing

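The number of peaks counted for the 8 genes was 11 by the authors' assignment, and rose to 26 when every peak within 50 kb of a gene was counted, since this takes in peaks of neighbours. With no mismatch allowed, 18.2% of the 11 peaks (2 of 11) held an NFI full site in place of 63.6%, beside 13.4% of all peaks in place of 51.8%. The other alternatives moved these values less. With the upper 2 quartiles of score only, 5 genes had a peak and 3 a promoter peak. The shares of all protein-coding genes at that cut are not given here, so these 2 counts have no background beside them. The promoter count was 4 in all 3 other windows. The share with a full site was 63.6% in the peaks as deposited, where 7913 of all 15824 peaks held one. It was 63.6% in windows of 400 bp beside 58.3% of all peaks, and 62.5% in the upper 2 quartiles beside 59.5%. With no mismatch, in 400 bp and in the upper quartiles the gap from all peaks, in percentage points, was thus smaller than in the report. With no mismatch both shares were also far lower, so the smaller gap there does not mean a smaller ratio. When every peak within 50 kb of a gene was counted, 13 of 26 peaks held a full site, a share below the 51.8% of all peaks. The excess over all peaks was therefore not kept at that range. Within 10 kb of a gene, 7 of 10 peaks held one, a share above that of all peaks. Leaving out a replicate was not possible, because the list has 0 columns of values per sample. No paired analysis was possible because the merged list carries no replicates. The unknown depth limits what the lack of a peak at *Ctrl*, or in the *Cela3a* copies of *Cela3b* peaks, can show.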
